A study of Mus musculus with 5 samples.

Results

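Classical cadherins and their large relatives of the Fat and Celsr families were followed in 2 cultured mouse neurons, sensory neurons of the dorsal root ganglion (DRG) and granule neurons of the cerebellum (CGNs). The genes were taken from a list of 10 symbols, each matched after the suffix that marks an assembled isoform was removed. Of the 10, 9 were in the table: Cdh4, Cdh8, Cdh11, Cdh13, Cdh15, Fat2, Fat3, Celsr2 and Celsr3, out of 15154 genes in all. Cdh2 was not analysed here. The 9 genes were represented by 33 of 50356 isoforms, 7 of them reference transcripts and 26 assembled from the reads.

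Polyadenylated RNA was sequenced from 5 libraries of C57bl/6j mice at postnatal day 8, all cultured on poly-d-lysine and laminin, a substrate on which axons grow. The 3 DRG libraries each pooled ganglia of 2 mice, kept for 16 days with nerve growth factor and an antimitotic compound. The 2 CGN libraries each came from 1 mouse and were kept for 16 hours. Cell type and time in culture therefore cannot be told apart, and in such bulk samples fewer cells of a type and less RNA per cell cannot be told apart either. By the study's own count the DRG cultures held some cells that were not neurons. The terms DRG neurons and CGNs thus name whole cultures here.

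Cadherins are calcium-dependent adhesion proteins whose extracellular repeats bind those of neighbouring cells. The cytoplasmic tails of classical cadherins bind catenins, which link the junction to actin. Fat proteins are very large cadherins related to the fly tumour suppressor fat, and Celsr proteins, mammalian counterparts of fly Flamingo, join cadherin repeats to an adhesion G protein-coupled receptor and act with Frizzled and Vangl in planar cell polarity and axon guidance.

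Levels were given as FPKM, fragment numbers scaled by transcript length and, between libraries, by upper-quartile normalization. A gene's level was the sum of its isoforms. Differences are log2 ratios of FPKM + 50, DRG neurons over CGNs, so those of weakly expressed genes are understated. A gene or isoform was tested with limma if it reached 50 FPKM in at least 2 libraries, and was called at an adjusted p under 0.05 over all features tested. Replicates were separate cultures by the study's methods. Total FPKM averaged 1.88 times as high in DRG libraries as in CGN libraries, and was 1.66 times as high in the second CGN library as in the first. The median log2 difference over 13275 tested genes was 0.59, against 0.02 after quantile normalization, -0.26 when total FPKM was made equal and -0.02 with median ratio scaling. The depth behind a value is unknown, as only FPKM were used. A value of 0 is not read as absence, since the ribosomal protein gene Rps13 was also listed at 0 in every library.

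Marker genes followed the labels. Those tested that were at 0 throughout a group, and some others, passed the filter through 1 group alone and so had to differ. The counts are therefore descriptive, where 28.4% of all tested genes were called higher in DRG libraries and 9.22% lower. All 6 sensory neuron markers measured, led by P2rx3, were higher in DRG libraries, with Trpv1, Scn10a and Isl1 listed at 0 in both CGN libraries, and all 7 granule neuron markers, led by Neurod1, were lower (529 to 1353 FPKM in sum against 148575 to 233331), with Pax6, Barhl1, Gabra6 and Nhlh1 at 0 in every DRG library. Markers of other cells were measured in both cultures. Of 8 Schwann and satellite glia markers, led by Pmp22, 5 were higher and 1 lower in DRG libraries, their summed level being 83736 to 123533 FPKM against 23325 to 31968 in CGNs, where Dhh was at 0. Of 8 fibroblast markers, led by Col1a1, 5 were higher and none lower, with sums of 38483 to 80704 against 2574 to 5561 and no marker at 0 throughout a group. Of 6 cerebellar glia markers, led by Slc1a2, 5 were lower in DRG libraries and 1 higher, with sums of 953 to 1432 FPKM against 16705 to 24289 in CGNs and Aqp4 at 0 in every DRG library. Of 5 tested markers of other cerebellar neurons, the leading one, Pcp2, was not called. It was at 5843, 103 and 94.5 FPKM in DRG libraries and at 2869 and 5674 in CGNs. The other 4 were lower in DRG libraries. The list summed to 124 to 6072 FPKM against 8167 to 14600, with Gad1, Gad2, Pvalb and Eomes at 0 in every DRG library. All 3 tested macrophage markers, led by Cd68, were lower too, with sums of 286 to 1074 against 3855 to 5845 and Aif1, Itgam and Cx3cr1 at 0 in every DRG library. Of 5 granule precursor and cell cycle genes, led by Ccnd2, 3 were lower, with Atoh1 at 0 in every DRG library, and of 3 tested endothelial markers, led by Cdh5, 1 was lower, Cldn5, at 0 in every DRG library.

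The 9 genes differed widely in level, and the leading genes were not the same in the 2 cultures. Their FPKM summed to between 3301 and 5429 in DRG libraries and between 13736 and 18227 in CGN libraries. Of the 7 genes that could be tested, Cdh11 was called higher in DRG neurons, Fat2, Celsr2 and Celsr3 were called lower, and Cdh4, Cdh13 and Fat3 were not called. Over all tested genes 28.4% were called higher and 9.22% lower, 37.7% in either direction. The median log2 difference of the 7 was -1.17. In 4 of the 7 the DRG and CGN values did not overlap, against 60.3% of all tested genes. Fat2 passed the filter through the CGN libraries alone, so it had to differ, and these counts are descriptive. The plot of levels by library shows the spread within each culture.

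**Figure D1:**
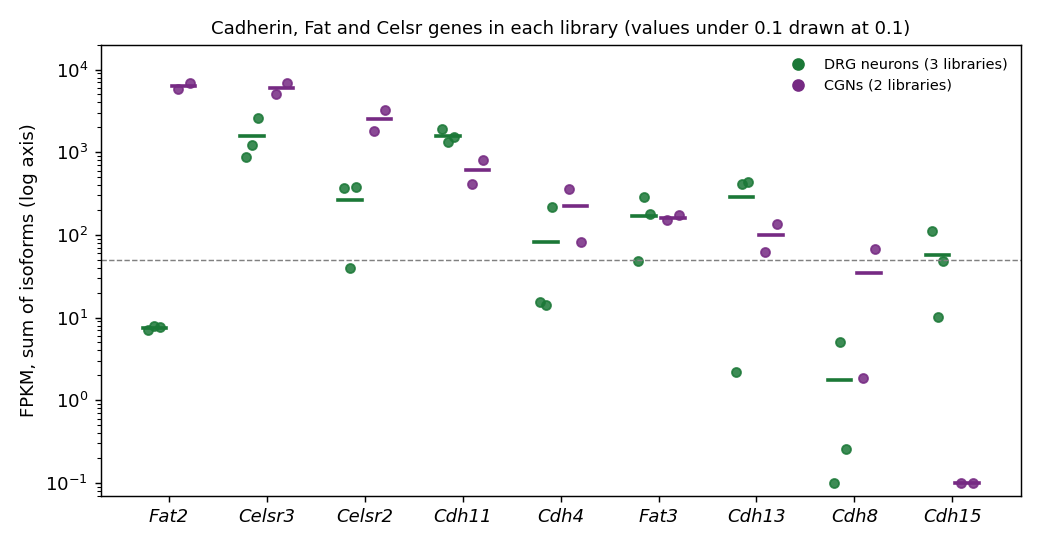
FPKM of each gene (sum of isoforms, log axis) in the 3 DRG libraries and 2 CGN libraries, with points for libraries and bars for group means; the dashed line marks 50 FPKM, and values under 0.1 are drawn at 0.1. Fat2 lies between 6.98 and 7.91 in DRG neurons and at 5804 and 6886 in CGNs, while Cdh4, Fat3 and Cdh13 overlap between the cultures.

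In DRG neurons the order of mean FPKM was Cdh11, Celsr3, Cdh13, Celsr2, Fat3, Cdh4, Cdh15, Fat2 and Cdh8. The ranges of Cdh11 and Celsr3 overlapped, and each gene from Cdh13 to Cdh15 overlapped its neighbour. In CGNs the order was Fat2, Celsr3, Celsr2, Cdh11, Cdh4, Fat3, Cdh13, Cdh8 and Cdh15, and of neighbours only Fat2 and Celsr3, Cdh4 and Fat3, and Cdh13 and Cdh8 overlapped. By mean level, Fat2 exceeded 93.8% of the 15154 genes in CGNs and 11.1% in DRG neurons. Celsr3 exceeded 93.4% of genes in CGNs and 60.1% in DRG neurons, and Cdh11 exceeded 48.4% and 60.4%.

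Of the 5 Cdh genes among the 9, Cdh11 had the highest mean level in both cultures. Of Cdh genes outside the 9, Cdh5 had a higher mean in both (1816 FPKM in DRG libraries and 848 in CGNs). Cdh19 was higher in DRG libraries (2647) and Cdh24 in CGNs (763). Cdh11 is a type II classical cadherin known from mesenchymal cells and fibroblasts. It was at 1906, 1317 and 1544 FPKM in the 3 DRG libraries and at 407 and 797 FPKM in the 2 CGN libraries, so the groups did not overlap. The means were 1589 ± 297 FPKM (SD, n = 3) in DRG neurons and 602 ± 276 FPKM (SD, n = 2) in CGNs. The log2 difference was 1.38 (SE 0.47, limma adjusted p = 0.043), which is 0.79 above the median of all genes. Of the fibroblast markers above 5 of 8 were higher in the same libraries, and of the Schwann and satellite glia markers 5 of 8 were higher and 1 lower. Their part in this difference was not tested. The call was lost under 9 of 15 alternatives, among them equal total FPKM (0.49, adjusted p = 0.14), median ratio scaling (0.75, adjusted p = 0.058) and a fit without the first CGN library (0.94, adjusted p = 0.14). It was also lost without DRG library 1 (1.25), 2 (1.50) or 3 (1.39), with adjusted p of 0.13, 0.061 and 0.08, and the direction held throughout, from 0.49 to 1.83.

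The Cdh11 locus (mm9 chr8:105157420-105308965) covers all 13 exon blocks of the GENCODE gene and carried 5 isoforms. The assembled isoform Cdh11_j3 was at 1470, 674 and 222 FPKM in DRG libraries and at 313 and 734 FPKM in CGNs, so the groups overlapped. It held 77.1, 51.1 and 14.4% of the gene's FPKM in DRG libraries and 76.8 and 92.0% in CGNs. The difference in share was -36.9 percentage points (exact two-sided permutation p = 0.3 over 10 splits, whose smallest p is 0.1). It was -20.3 points without the third DRG library and -18.6 among the isoforms that passed the filter. The remaining FPKM was assigned to other isoforms in each DRG library. The reference transcript reached 576 FPKM in the second DRG library and at most 20.1 in the others, and Cdh11_j1 reached 744 FPKM in the third and at most 26.0 in the others. Cdh11_j4 was at 390, 0.01 and 506 FPKM in DRG libraries and at 76.7 and 63.7 in CGNs (log2 difference 0.94, SE 1.20, adjusted p = 0.65). Cdh11_j2 was at most 72.6 FPKM in any library (log2 difference 0.63, adjusted p = 0.47), and Cdh11_j3 had a log2 difference of 0.33 (SE 0.84, adjusted p = 0.84). No isoform of Cdh11 was called, although their sum was.

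Cdh4, or R-cadherin, is a type I classical cadherin known from retina and brain. It was at 15.3, 14.2 and 215 FPKM in DRG libraries and at 362 and 82.3 FPKM in CGNs. The third DRG library lay between the 2 CGN libraries, so the groups overlapped. The log2 difference was -1.17 (SE 0.81, 95% interval -2.98 to 0.64, limma adjusted p = 0.28), and with a library left out it ranged from -1.99 without the second CGN library (adjusted p = 0.25) to -0.35 without the first (adjusted p = 0.84). It passed the threshold only without the third DRG library (-1.85, adjusted p = 0.047). The deposited locus, chr2:179514958-179634104, spans 26.1% of the annotated gene and 14 of its 18 exon blocks, and it overlaps another gene, Gm10711. Of its isoforms, Cdh4_j1 was at 11.0, 1.0 and 213 FPKM in DRG libraries and at 299 and 3.99 FPKM in CGNs, and had a log2 difference of -0.55 (SE 1.10, adjusted p = 0.78). Cdh4_j2 was at 4.32, 13.2 and 1.74 FPKM in DRG libraries and at 63.0 and 78.3 FPKM in CGNs, with no overlap, and was not called (log2 difference -1.10, SE 0.37, adjusted p = 0.10). It passed the filter through the CGN libraries alone, so its groups could not overlap. It was called with no filter (adjusted p = 0.047) and at equal total FPKM (adjusted p = 0.046). Its log2 difference was -1.19 without the first CGN library and -1.01 without the second. The isoform with the larger share thus differed between the 2 CGN libraries, being Cdh4_j1 at 82.6% in the first and Cdh4_j2 at 95.2% in the second.

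Cdh13, or T-cadherin, lacks a cytoplasmic tail and is held in the membrane by a lipid anchor. It was at 2.19, 412 and 438 FPKM in DRG libraries and at 61.3 and 135 FPKM in CGNs. The first DRG library lay below both CGN libraries and the other DRG libraries lay above them. The log2 difference was 0.66 (SE 0.96, 95% interval -1.49 to 2.82, limma adjusted p = 0.62), and 1.73 without the first DRG library (adjusted p = 0.069). The isoforms separated more than the gene did, but each passed the filter through 1 culture alone, so this is descriptive. The reference transcript was at 0.12, 412 and 438 FPKM in DRG libraries and under 0.01 FPKM in both CGN libraries, and its 95% lower bound was above 0 only in the second DRG library and the third. Cdh13_j1, assembled over the same span (chr8:120807642-121848801), was at 2.07 and 0.01 FPKM in the first and second DRG libraries, under 0.01 in the third, and at 61.3 and 135 FPKM in CGNs. Neither passed the test, with log2 differences of 2.17 (SE 1.13, adjusted p = 0.25) for the reference transcript and -1.50 (SE 0.41, adjusted p = 0.058) for Cdh13_j1. Cdh13_j1 was called lower in 7 of the 14 alternatives in which it was tested, among them each of the 3 other scalings (-1.94 to -1.60, adjusted p of 0.025 to 0.035) and the fits without the first CGN library (-1.87) or the second (-1.14).

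Cdh8 and Cdh15 were weak and could not be tested. Cdh8, a type II classical cadherin of the nervous system, was under 0.01, 5.06 and 0.26 FPKM in DRG libraries and at 1.88 and 67.1 FPKM in CGNs. Only the second CGN library exceeded 50 FPKM, and the groups overlapped. Cdh15, or M-cadherin, is best known from muscle and its satellite cells and is also found in cerebellar granule cells. It was at 111, 10.1 and 48.3 FPKM in DRG libraries and was listed at 0 in both CGN libraries. Its deposited locus, chr8:125388161-125391277, takes in 6 of 14 exon blocks and 16.0% of the gene's span, and it overlaps another gene, Gm20388. None of the 7 muscle markers on the list was in the table used here.

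Fat2 showed the widest separation among the 9 genes. It is known in mouse cerebellum from the parallel fibres of granule cells. Fat2 was at 6.98, 7.91 and 7.64 FPKM in DRG libraries and at 5804 and 6886 FPKM in CGN libraries. Every DRG library was therefore under 8 FPKM, and Fat2 was the most abundant of the 9 genes in both CGN libraries. The means were 7.51 ± 0.48 FPKM (SD, n = 3) and 6345 ± 765 FPKM (SD, n = 2), and the log2 difference was -6.79 (SE 0.55, limma adjusted p = 4.6e-05), or -7.38 relative to the median gene. Fat2 was called in all 15 alternatives, at log2 differences from -9.54 to -6.67 and adjusted p of at most 0.0059. All 7 granule neuron markers and 4 of 5 tested markers of other cerebellar neurons were lower in the same DRG libraries. Of 6 cerebellar glia markers 5 were lower and 1 higher. The part of these cells in this difference was not tested.

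Both Fat2 isoforms were assembled over the same span (chr11:55064158-55150161), which covers all 25 exon blocks of the gene on the minus strand. Fat2_j1 was at 3.10, 3.43 and 3.37 FPKM in DRG libraries, with upper 95% bounds of 10.8 to 12.1, and at 3507 and 4358 FPKM in CGNs. Fat2_j2 was at 3.88, 4.48 and 4.27 FPKM in DRG libraries and at 2297 and 2528 FPKM in CGNs. Both passed the filter through the CGN libraries alone and so had to differ. They were called lower in DRG neurons, at log2 differences of -6.22 (SE 0.62, limma adjusted p = 0.0044) for Fat2_j1 and -5.50 (SE 0.66, adjusted p = 0.0073) for Fat2_j2. Fat2_j1 held 60.4 and 63.3% of Fat2 FPKM in the CGN libraries. In DRG libraries, where the lower 95% bound of each isoform was 0, the shares of Fat2_j1 were 43.4 to 44.4%.

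Fat3, a relative of Fat2 that shapes dendrites of amacrine cells in the mouse retina, gave no such separation. It was at 48.8, 283 and 180 FPKM in DRG libraries and at 150 and 173 FPKM in CGNs. Both CGN libraries lay within the DRG range. The log2 difference was -0.10 (SE 0.67, 95% interval -1.61 to 1.40, limma adjusted p = 0.91). The interval does not exclude a change of more than 2-fold either way on this scale, so equal levels are not shown. The table held Fat3 as 2 assembled pieces that do not overlap, Fat3_j1 over 2 of 26 exon blocks (chr9:15720423-15727438) and Fat3_j2 over 22 (chr9:15727452-15889771). The first piece was at 36.1, 280 and 140 FPKM in DRG libraries and at 81.8 and 76.4 FPKM in CGNs (log2 difference 0.44, SE 0.83, adjusted p = 0.77). The second, which holds most exon blocks of the gene, was at 12.7, 3.39 and 40.2 FPKM in DRG libraries and at 68.4 and 96.4 FPKM in CGNs. It passed the filter through the CGN libraries alone, so its groups could not overlap, and it was not called (log2 difference -0.97, SE 0.47, adjusted p = 0.23).

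The Celsr genes were both lower in DRG neurons. Celsr2, which promotes dendrite growth in rodent neurons, was at 365, 39.5 and 380 FPKM in DRG libraries and at 1823 and 3220 FPKM in CGNs. The lowest CGN library was thus above every DRG library, and the second DRG library was far below the other DRG libraries. The means were 262 ± 193 FPKM (SD, n = 3) and 2521 ± 988 FPKM (SD, n = 2), with a log2 difference of -3.30 (SE 0.75, limma adjusted p = 0.0084), or -3.89 relative to the median gene. Without the second DRG library it was -2.55 (adjusted p = 0.0027). Celsr3, which mice need to form major axon tracts of the forebrain, was at 877, 1212 and 2615 FPKM in DRG libraries and at 5127 and 6866 FPKM in CGNs. Its groups did not overlap, although the third DRG library was the highest of that group. The means were 1568 ± 922 FPKM (SD, n = 3) and 5996 ± 1230 FPKM (SD, n = 2), with a log2 difference of -2.03 (SE 0.47, limma adjusted p = 0.009), or -2.62 relative to the median gene.

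Both Celsr calls held in 12 of 15 alternatives and were lost in the other 3. With no filter on low values the adjusted p was 0.075 for Celsr2 and 0.064 for Celsr3. With a CGN library left out, the remaining one was assumed to vary like the DRG libraries, and the log2 difference of Celsr2 was -3.70 (adjusted p = 0.14) without the first and -2.89 (adjusted p = 0.17) without the second. For Celsr3 it was -2.24 (adjusted p = 0.13) and -1.83 (adjusted p = 0.15). The plot of differences shows that Fat2, Celsr2 and Celsr3 lay further below 0 under each other scaling. Those scalings also lowered the median over all tested genes, from 0.59 to 0.02 (quantile), -0.26 (equal total) and -0.02 (median ratio).

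**Figure D2:**
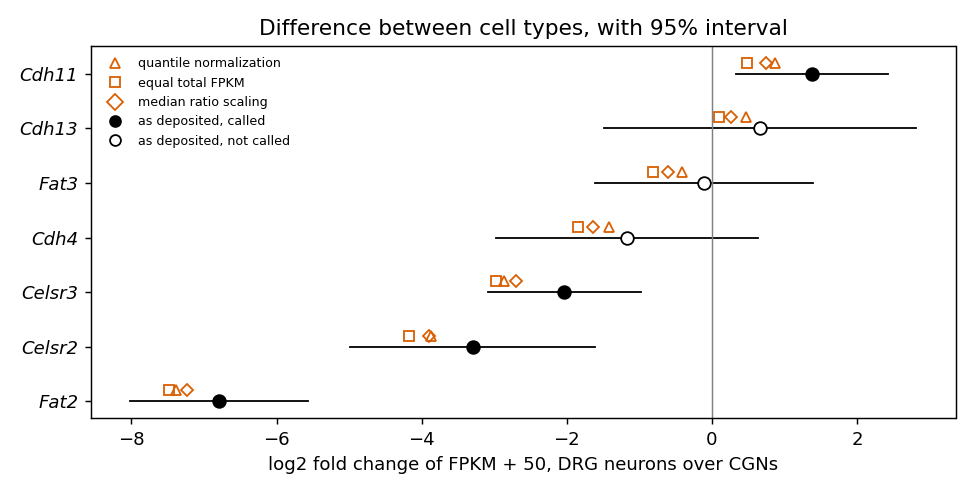
Log2 fold change of FPKM + 50, DRG neurons over CGNs, for the 7 tested genes: circles and 95% limma intervals are for FPKM as deposited, filled where called, and orange symbols are the same difference under 3 other scalings. Fat2 (-6.79), Celsr2 (-3.30) and Celsr3 (-2.03) stay below 0 under each scaling, while Cdh11 moves from 1.38 to between 0.49 and 0.88.

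At the level of isoforms, 20 of 33 reached the filter, and 6 were called lower in DRG neurons, 0 higher and 14 not called. The CGN libraries alone brought 9 of the 20 past the filter, among them 5 of the 6 called, and the DRG libraries alone brought 3, so these counts too are descriptive. Over 33587 tested isoforms 5.04% were called lower and 9.63% higher, 14.7% in either direction. The groups did not overlap in 14 of the 20, against 47.2% of all tested isoforms. The median log2 difference of the 20 was -1.47, against 0.38 over all tested isoforms. Among the 33, 6 had no library with a lower 95% bound above 0, and 6 stayed under 50 FPKM in every library. The authors' software divided the fragments of a gene among its isoforms. Several isoforms held nearly all FPKM of their gene in 1 library and almost none in another, and the cause was not tested.

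Celsr2 (chr3:108193789-108218953) had 5 isoforms over 31 exon blocks. The reference transcript uc008qyx.1 was at 1586 and 2739 FPKM in CGNs, 87.0 and 85.1% of the gene. In DRG libraries it was under 0.01 FPKM in the first and second and at 296 FPKM in the third. It was called lower (log2 difference -4.49, SE 1.04, limma adjusted p = 0.038), but not with pseudocounts of 1 (-8.29, adjusted p = 0.14) or 10 (-6.07, adjusted p = 0.073), with no filter (adjusted p = 0.10), or without DRG library 1 (-4.02, adjusted p = 0.10) or 2 (-4.02, adjusted p = 0.094) or CGN library 1 (-4.87, adjusted p = 0.21) or 2 (-4.10, adjusted p = 0.24). The most abundant Celsr2 isoform differed among all DRG libraries: it was Celsr2_j1 at 352 FPKM in the first, Celsr2_j3 at 39.5 in the second and the reference transcript in the third. Celsr2_j3 was at 6.04, 39.5 and 84.5 FPKM in DRG libraries and at 218 and 461 FPKM in CGNs, without overlap, and was not called (log2 difference -2.08, SE 0.78, adjusted p = 0.13), except at equal total FPKM (-2.74, adjusted p = 0.04).

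Celsr3 (chr9:108728387-108755307) had 11 isoforms over 35 exon blocks, of which 7 were tested and 3 called. Some share a name in the table and are told apart here by the identifier of the assembled transcript. Celsr3_j3 (TCONS_01407826) was at 1421 and 933 FPKM in CGNs and under 1 FPKM in every DRG library (log2 difference -4.58, SE 0.70, limma adjusted p = 0.014). Celsr3_j4 (TCONS_01374366) was at 982 and 1260 FPKM in CGNs and under 1 FPKM in every DRG library (log2 difference -4.54, SE 0.69, adjusted p = 0.014). The other Celsr3_j3 (TCONS_01374367) was at 400 and 742 FPKM in CGNs and under 0.01 FPKM in every DRG library (log2 difference -3.58, SE 0.65, adjusted p = 0.022). That call was lost with no filter (adjusted p = 0.055) and without DRG library 1, 2 or 3, at an unchanged difference and adjusted p of 0.072, 0.062 and 0.064. These 3 isoforms passed the filter through the CGN libraries alone. Their upper 95% bounds in DRG libraries ran from 52.2 to 102 FPKM.

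Celsr3_j5 was measured in every library, at 694, 644 and 692 FPKM in DRG libraries and at 1413 and 2808 FPKM in CGNs. Its groups did not overlap, and it was not called (log2 difference -1.49, SE 0.45, limma adjusted p = 0.075) with FPKM as deposited. It was called lower under each of the 3 other scalings (-2.41 to -1.97, adjusted p of 0.0069 to 0.011) and without the first CGN library (-1.98, adjusted p = 0.044). It held 79.1, 53.1 and 26.5% of Celsr3 FPKM in DRG libraries and 27.6 and 40.9% in CGNs, a difference in share of 18.7 percentage points (exact two-sided permutation p = 0.5). It was 5.57 points without the first DRG library and 31.9 without the third. The higher Celsr3 level of the third DRG library was in other isoforms: Celsr3_j1 (TCONS_01364755) was at 113, 165 and 999 FPKM in DRG libraries and at 835 and 880 FPKM in CGNs (log2 difference -1.45, SE 0.90, adjusted p = 0.32). Celsr3_j6 was at 69.6, 130 and 785 FPKM in DRG libraries and under 0.01 FPKM in CGNs, and was not called (log2 difference 2.39, SE 0.98, adjusted p = 0.16), except with a pseudocount of 1 (7.60, adjusted p = 0.043). Celsr3_j6 passed the filter through the DRG libraries alone and so had to differ. Its lower 95% bound was above 0 in the third DRG library only, and its upper bounds in CGNs were 381 and 435 FPKM. The other Celsr3_j1 (TCONS_01394390) was at 76.2 and 242 FPKM in CGNs and under 0.01 FPKM in DRG libraries (log2 difference -1.94, SE 0.52, adjusted p = 0.055). It passed the filter through the CGN libraries alone and so had to differ. It was called lower under each of the 3 other scalings (adjusted p of 0.024 to 0.031) and with a pseudocount of 1 or 10. Its log2 difference was -2.54 without the first CGN library and -1.34 without the second.

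**Figure D3:**
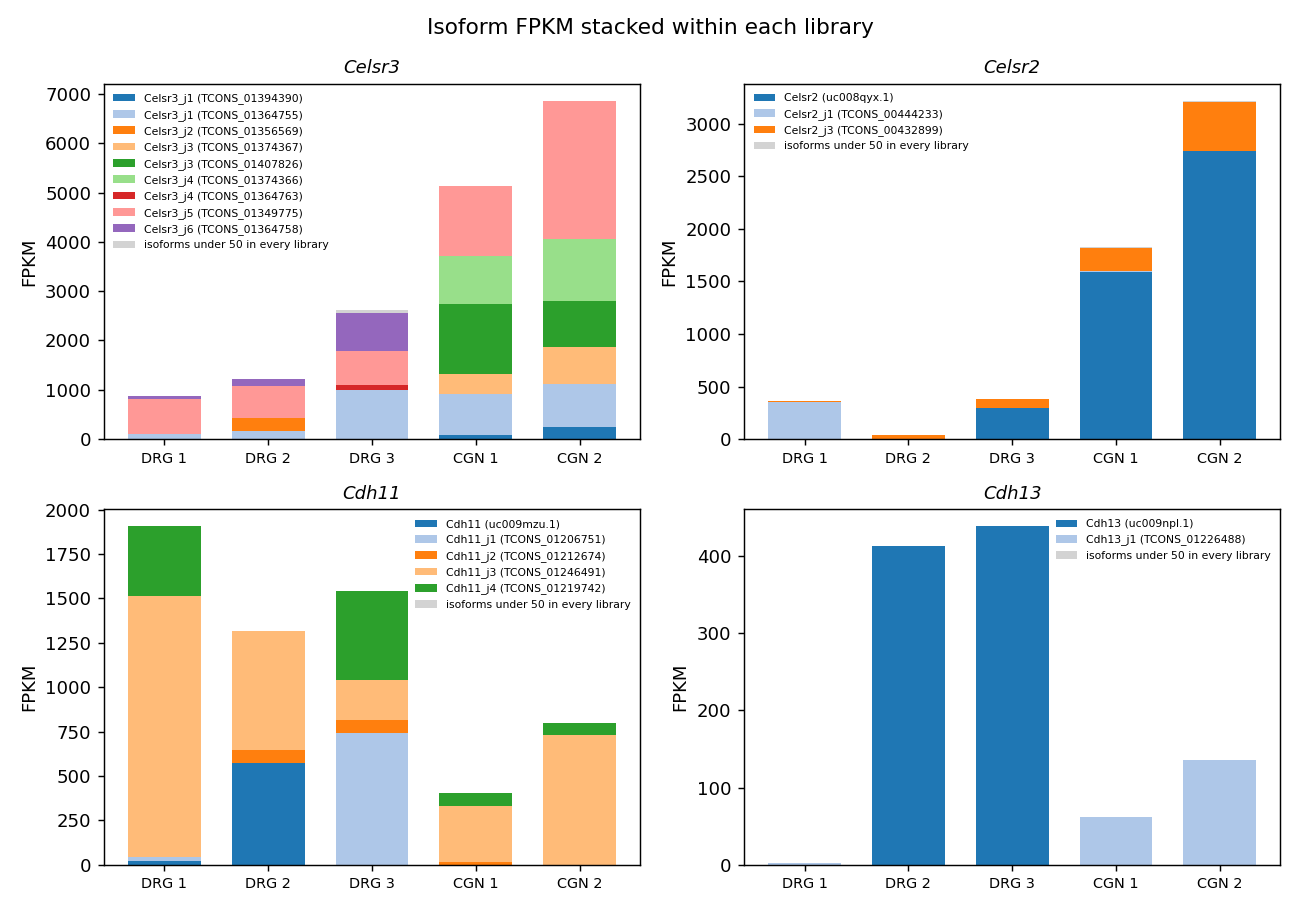
Isoform FPKM stacked within each library for Celsr3, Celsr2, Cdh11 and Cdh13, with the vertical axis in FPKM from 0; isoforms that stayed under 50 FPKM in every library are pooled in grey. Celsr3_j5 is present in all 5 libraries, at 644 to 2808 FPKM, whereas the Cdh13 reference transcript is seen in 2 DRG libraries and Cdh13_j1 in both CGN libraries.

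Genes that work with these cadherins were read from 3 lists, which are shown gene by gene in the plot of partner genes. Of 25 other members of the cadherin superfamily, 16 were in the table and 10 were tested, with 1 called higher in DRG neurons, 3 lower and a median log2 difference of -0.70, where 28.4% of all tested genes were higher and 9.22% lower. Cdh19, a type II cadherin known from the Schwann cell lineage, was at 2982, 1806 and 3153 FPKM in DRG libraries and at 17.3 and 0 FPKM in CGNs. It had the largest difference of the list (log2 difference 5.50, SE 0.54, limma adjusted p = 0.00013), but it passed the filter through the DRG libraries alone and so had to differ. Of 8 Schwann and satellite glia markers 5 were higher in the same libraries and 1 lower, and their part was not tested. Dchs1, a large cadherin that binds Fat4, was at 533, 358 and 0 FPKM in DRG libraries and at 4886 and 6884 FPKM in CGNs, without overlap. Its log2 difference was -4.68 (SE 0.93, adjusted p = 0.0043), and its adjusted p rose to as much as 0.15 in the 4 alternatives that lost the call: a pseudocount of 1, no filter, and either CGN library left out.

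The other lower members of that list were smaller in difference. Cdh24, a type II cadherin, was at 66.7, 65.8 and 99.4 FPKM in DRG libraries and at 1005 and 521 FPKM in CGNs (log2 difference -2.62, SE 0.59, limma adjusted p = 0.008), and was called in all 15 alternatives. Clstn3, a calsyntenin of the postsynaptic membrane, was at 1305, 1637 and 1640 FPKM in DRG libraries and at 3004 and 4400 FPKM in CGNs (log2 difference -1.23, SE 0.36, adjusted p = 0.026). The Clstn3 call was lost in 6 of 15 alternatives, with adjusted p of up to 0.16, including those without DRG library 1, 2 or 3 or CGN library 2.

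Of 14 catenins and junction proteins 13 were tested, 6 being higher in DRG neurons and 2 lower, with a median log2 difference of 0.86, against 28.4% and 9.22% of all tested genes and their median of 0.59. The list's median was 0.08 after quantile normalization, -0.08 when total FPKM was made equal and 0.19 with median ratio scaling, and the split of calls became 5 higher and 4 lower, 5 and 4, and 5 and 3. Of all tested genes, 22.4, 17.2 and 21.8% were higher and 21.1, 26.1 and 20.7% lower under the same scalings. Vinculin, Vcl, which binds alpha-catenin under tension, was at 7681, 4307 and 6965 FPKM in DRG libraries and at 849 and 1455 FPKM in CGNs (log2 difference 2.41, SE 0.40, limma adjusted p = 0.0017). The alpha-catenins Ctnna2, the neuronal form (2.04, SE 0.48, adjusted p = 0.0096), and Ctnna1 (1.94, SE 0.36, adjusted p = 0.0033) were higher too, as was the nectin Pvrl2 (1.64, SE 0.39, adjusted p = 0.01). All 4 were higher under each scaling. Ctnna2 lost its call with no filter (adjusted p = 0.074), and Vcl, Ctnna1 and Pvrl2 lost theirs without the first CGN library (adjusted p of 0.062, 0.065 and 0.07).

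Of the 2 lower genes of the list, Ctnnd2, the neural delta-catenin, was at 966, 1099 and 937 FPKM in DRG libraries and at 1898 and 3104 FPKM in CGNs (log2 difference -1.24, SE 0.41, limma adjusted p = 0.038). Mllt4, or afadin, which binds nectins to actin, was at 2185, 2211 and 1876 FPKM in DRG libraries and at 3496 and 6878 FPKM in CGNs (log2 difference -1.22, SE 0.38, adjusted p = 0.032). The groups did not overlap for either. Both calls were lost without DRG library 1, 2 or 3 and without the second CGN library, with adjusted p of up to 0.21 for Ctnnd2 and 0.23 for Mllt4 over all alternatives.

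Of 12 planar cell polarity genes, partners of Celsr proteins, 11 were tested. None was called higher and 3 lower, where 28.4% of all tested genes were higher and 9.22% lower. The median log2 difference of the 11 was -0.61. Under each of the 3 other scalings 8 were called lower, while lower calls over all tested genes rose to between 20.7 and 26.1%. Without the first CGN library 1 was called lower, and without the second 0, against 6.50 and 5.53% of all tested genes. Vangl2, a core membrane protein of the pathway, was at 115, 15.2 and 189 FPKM in DRG libraries and at 1234 and 2067 FPKM in CGNs (log2 difference -3.59, SE 0.70, limma adjusted p = 0.0038). Fzd3, the Frizzled receptor that, like Celsr3, mice need for axon tracts, was at 244, 55.6 and 191 FPKM in DRG libraries and at 1115 and 1437 FPKM in CGNs (log2 difference -2.75, SE 0.63, adjusted p = 0.0088). Dvl3, a cytoplasmic Dishevelled, was at 3474, 2658 and 2624 FPKM in DRG libraries and at 5775 and 8980 FPKM in CGNs (log2 difference -1.30, SE 0.35, adjusted p = 0.016). Vangl2 and Fzd3 lost their calls when either CGN library was left out, with adjusted p of up to 0.082 and 0.098, and Dvl3 lost its call without DRG library 2 or 3 or the second CGN library (up to 0.20).

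**Figure D4:**
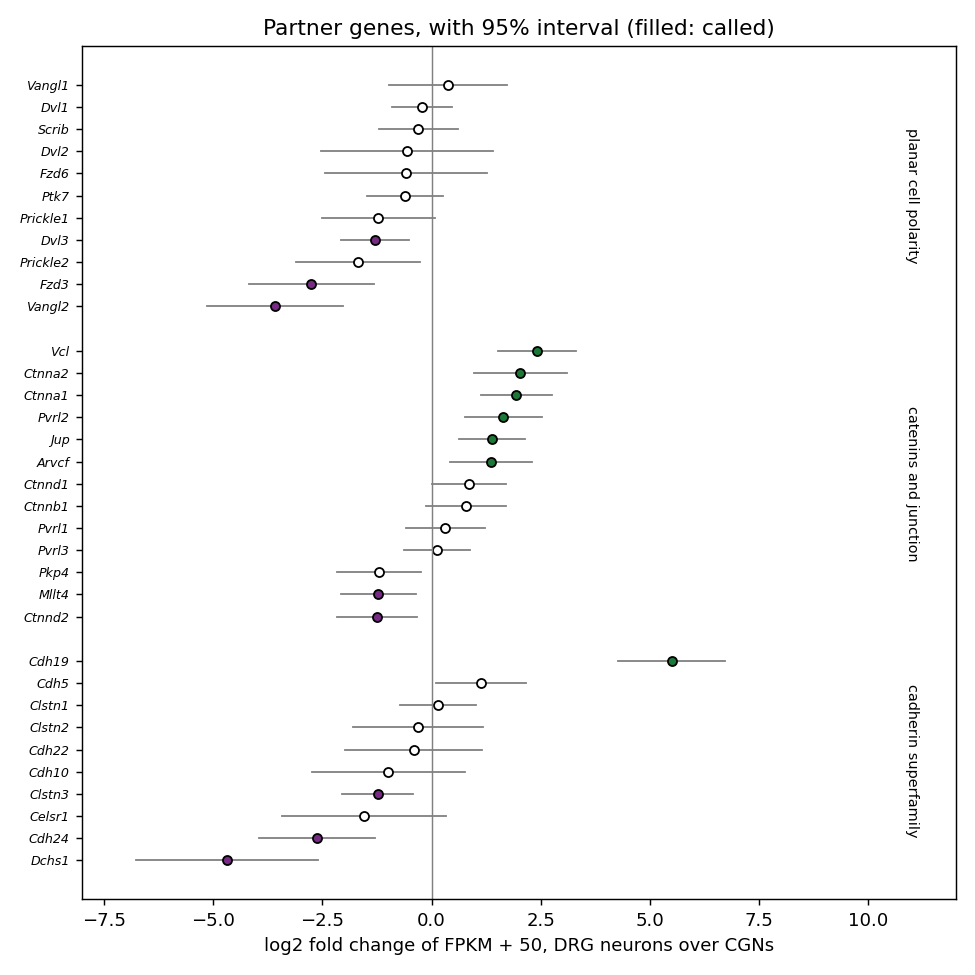
Log2 fold change of FPKM + 50, DRG neurons over CGNs, with 95% limma intervals for the tested genes of the 3 partner lists; filled symbols were called, green for higher and purple for lower in DRG neurons. Cdh19 (5.50) and Dchs1 (-4.68) lie at the ends of the plot, and none of the 11 planar cell polarity genes was called higher, against 28.4% of all tested genes.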

How the data were processed

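RNA of 3 DRG and 2 CGN libraries was analysed from the deposited table, grouped by the labels. The authors aligned reads to mm9 with TopHat, assembled isoforms with Cufflinks and estimated FPKM and its 95% bounds for each library with Cuffdiff and upper-quartile normalization, which sets the scale of values between cell types. Columns of pooled FPKM and of the authors' own comparison (fold change, p-value, call) were not used. Here isoform FPKM were summed per gene, and log2(FPKM + 50) was compared with limma 3.58.1 (empirical Bayes with trend, R 4.3.3) for features at 50 FPKM or more in 2 libraries, with Benjamini-Hochberg adjustment over all features tested. The step was first tested on simulated data. Isoform shares were compared by exact permutation over 10 splits. Exon blocks came from GENCODE M1, of the same build (NCBIM37). Figures used Python 3.11.15 and matplotlib 3.10.9.

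The genes and lists were chosen with earlier results of these data known. All listed genes and every tested isoform were named, as were, from each partner list, up to 4 called genes with the largest change in each direction, and markers listed at 0 throughout a group or highest in their list. A marker gene that met this rule is not reported here and was left out of its list. Each fit was repeated with a pseudocount of 1 or 10, without the filter or with 100 FPKM in 2 libraries, after median ratio scaling, quantile normalization or scaling to equal totals, and with no trend, a robust prior, a replicate block, and each library left out in turn.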

Additional observations from a re-analysis of the deposited data

How the results depend on the processing

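With 3 against 2 libraries and no read counts, precision rests on the spread between libraries. The count of the 9 genes called higher in DRG neurons, 1 as reported, was 0 with a pseudocount of 1, no filter, equal total FPKM, median ratio scaling or a replicate block, and 0 to 1 with a library left out. The count called lower, 3 as reported, was 1 with no filter and 1 to 4 with a library left out. Their isoforms called higher, 0 as reported (against 9.63% of all 33587 tested isoforms), were 1 with a pseudocount of 1. Those called lower, 6 as reported (against 5.04% of all), were 11 at equal total FPKM. In either direction, 10385 of all tested isoforms had an unadjusted p under 0.05 in limma.

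Over all genes, 3775 were called higher and 1224 lower. Lower calls numbered 2798 after quantile normalization, 2742 with median ratio scaling and 3459 at equal totals, and higher calls 2288 at equal total FPKM. With a library left out, higher calls ranged from 1580 to 3850 and lower calls from 734 to 1241. Over all isoforms, 3233 were higher and 1693 lower. With no filter they were 1936 and 1126, and lower calls were 3173, 3993 and 2840 under quantile, equal total and median ratio scaling. With a library left out they ranged from 575 to 2821 higher and from 257 to 1613 lower.

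Among these genes and isoforms, directions turned only where a difference was not called: Cdh13 (-0.15 with a pseudocount of 1), Fat3 (-0.49 to 0.39 with a library left out), Cdh4_j1 (-1.90 to 0.79 with a library left out), Cdh11_j4 (-0.28 with a pseudocount of 1), Fat3_j1 (-0.17 at equal total FPKM, -0.012 to 0.96 with a library left out) and Cdh11_j3 (-0.14, -0.54 and -0.11 under quantile, equal total and median ratio scaling, -0.27 to 0.98 with a library left out, and -0.23 without CGN library 1). The causes were not tested.

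Replicate numbers were not used to pair the samples, as neither the labels nor the study's methods give a pairing. Deviations of same-numbered libraries correlated at -0.02 and 0.01 over genes, and whether any animals were shared is not known. With a replicate block 2444 genes were called higher, and Cdh11 was not called (1.39, adjusted p = 0.14).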

Other observations

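After the values were seen, the second DRG library was picked out for the Celsr and polarity genes. It was the lowest DRG library for Celsr1 (479, 42.6 and 471 FPKM in the 3 DRG libraries), as it was for Celsr2, Vangl2 and Fzd3. The same held for Dvl2 (218, 38.3 and 768 FPKM), Dvl1 and Scrib. It was the highest for Prickle2 (383, 1027 and 260 FPKM), Vangl1 (208, 353 and 164 FPKM), Prickle1 and Fzd6. For Celsr3 (877, 1212 and 2615 FPKM), Dvl3 and Ptk7 it lay between the others, so the genes did not move as one. In the third DRG library Dchs1 and Cdh10 were listed at 0, against 533 and 358 FPKM for Dchs1 and 87.8 and 117 FPKM for Cdh10 in the first and second. Cdh7 was listed at 0 in every DRG library and was at 10.6 and 394 FPKM in the 2 CGN libraries, and Cdh20 was under 0.01 FPKM in the first CGN library and at 201 FPKM in the second. No test was made of these differences between libraries of 1 group.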
